A study of Homo sapiens with 12 samples.

Results

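The genes described here are 42 genes of protein folding and quality control in the endoplasmic reticulum (ER), out of 20263 genes measured by RNA-seq in A375 cells. They were chosen by gene symbol, as ER chaperones, enzymes of the calnexin cycle and of disulfide bond formation, components of ER-associated degradation, the membrane sensors and transcription factors of the unfolded protein response, and parts of the protein translocation machinery. The choice was made with earlier results of these data known, so the shares of members called below are descriptions. All 42 were in the table and all 42 passed the filter on low counts, as did 14287 genes in all. A375 is an established human melanoma line, labelled as wild type and as a skin tumor. The 4 groups of 3 libraries each were control cells (Ctrl), cells given DBIC, cells given hemin, and cells given both (DBIC+Hemin). DBIC is the label for a dodecyl ester of a benzimidazole carboxylic acid, which the study writes DdBIC and uses to induce pyroptosis. Hemin is the oxidised form of heme and is described in the series as an inhibitor of this cell death. The dose and duration of the treatments of these libraries, and what the Ctrl cells received, are not given in the sources used here. The labels do not say whether the 3 libraries of a group came from separate cultures, so p-values measure the spread between these libraries, which may be technical. In bulk RNA, a change in which cells remain and a change in RNA per cell cannot be told apart.

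Proteins of the secretory pathway enter the ER through the SEC61 channel, fold with the help of the chaperone BiP, the calnexin cycle and disulfide isomerases, and are returned to the cytosol for destruction when folding fails. When unfolded protein accumulates, the sensors IRE1 (gene ERN1), ATF6 and PERK are released from BiP. IRE1 splices the XBP1 messenger, ATF6 is cut to an active factor, and both factors switch on chaperone and degradation genes through short promoter elements, while PERK lowers protein synthesis. Counts per gene do not separate spliced from unspliced XBP1 messenger, nor do they show the activity of a sensor.

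The promoter elements that ATF6 and XBP1 are known to bind are shown first. By the search below, 13 members held at least 1 of them, and 27 members with a promoter window held none. The ER stress element (ERSE) was searched as CCAAT, any 9 bases and CCACG, its shorter form ERSE-II as ATTGG, any 1 base and CCACG, and the XBP1 element (UPRE) as TGACGTGG, each on both strands and in windows from 250 bases before to 50 bases after each RefSeq start site (GRCh38.p14). Of the 42 members, 40 had a window. ERSE was found in 8 of them (20%), namely HSPA5, HSP90B1, CALR, CANX, PDIA6, ERO1B, CRELD2 and XBP1, against 0.0916% of 27305 genes with a window. ERSE-II was found in HYOU1, SDF2L1 and HERPUD1 (7.5% of members and 0.0696% of genes), and UPRE in HYOU1, DNAJC10 and SEC62 (7.5% of members and 0.927% of genes). In HYOU1 the UPRE match overlapped one of its 2 ERSE-II matches. The stretches below come from the strand of the gene and carry the match in capitals. A reversed order (CGTGG first) is a match on the opposite strand. HSPA5, HSP90B1, XBP1, HERPUD1 and SDF2L1 are shown because their counts rose with DBIC, and CANX, CRELD2 and PDIA6 as examples with an ERSE match that did not pass that test. HERPUD1 and SDF2L1 hold ERSE-II and the other 6 hold ERSE, as do CALR and ERO1B, which rose and are not shown.
HSPA5, chr9:125241344-125241593, minus strand, the 250 bases before the start site: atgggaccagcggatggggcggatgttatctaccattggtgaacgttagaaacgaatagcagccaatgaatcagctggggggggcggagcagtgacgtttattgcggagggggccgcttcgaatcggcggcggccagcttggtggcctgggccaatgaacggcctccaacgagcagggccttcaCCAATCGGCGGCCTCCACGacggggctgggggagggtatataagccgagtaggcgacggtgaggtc
HSP90B1, chr12:103930211-103930239, plus strand: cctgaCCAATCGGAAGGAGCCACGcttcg
HSP90B1, chr12:103930316-103930344, plus strand: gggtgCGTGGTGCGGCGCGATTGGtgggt
XBP1, chr22:28800598-28800626, minus strand: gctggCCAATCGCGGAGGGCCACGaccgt
HERPUD1, chr16:56932020-56932040, plus strand: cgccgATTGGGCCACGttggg
SDF2L1, chr22:21642089-21642149, plus strand: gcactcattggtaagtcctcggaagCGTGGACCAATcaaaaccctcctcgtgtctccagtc
CANX, chr5:179698773-179698801, plus strand: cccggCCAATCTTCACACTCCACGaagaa
CRELD2, chr22:49918529-49918597, plus strand: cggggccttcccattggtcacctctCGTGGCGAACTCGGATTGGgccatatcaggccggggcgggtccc
PDIA6, chr2:10812848-10812876, minus strand: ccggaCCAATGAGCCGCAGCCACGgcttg

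By the coordinates of the table (hg38), HSPA5 lies at chr9:125234853-125241330 on the minus strand, DNAJB9 at chr7:108569568-108574850 and HERPUD1 at chr16:56932048-56944863 on the plus strand, XBP1 at chr22:28794555-28800597 and ERN1 at chr17:64039142-64130819 on the minus strand. The RefSeq start sites of the promoter windows differ from these gene ends, and distances are counted from the RefSeq start. The match lay 66 to 48 bases before it in HSPA5, 52 to 34 in XBP1 and 117 to 107 in HERPUD1. HSP90B1, the ER form of HSP90, had ERSE matches at 194 to 176 and at 89 to 71 bases before its RefSeq start, on opposite strands, and both lie within the gene as the table bounds it. By the same bounds, the matches shown for CANX, CRELD2 and PDIA6 also lie within their genes. The search took exact letters, so inexact forms of these elements were not counted. The HSPA5 stretch also holds CCAAT outside the marked match, without CCACG at the searched distance. The matches are a description of the windows and were not tied to binding of a factor.

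Total counts per library were between 37951275 and 44358912, and log2 CPM (counts scaled to the effective size of each library) of replicate libraries correlated at 0.992 to 0.993 across genes. As a check of the hemin labels, HMOX1, the heme-degrading enzyme that heme induces, was at 7.99 to 9.19 CPM in Ctrl and 61.9 to 65.5 CPM in Hemin. It was at 7.26 to 8.73 CPM in DBIC and 146 to 188 CPM in DBIC+Hemin. Of the melanocyte markers, SOX10 was at 548 CPM or more in every library, PMEL, MLANA, TYR and DCT were at 1.11 CPM or less, and MITF, S100B and S100A1 lay between. The summed CPM of these 8 markers was 648 to 676 in Ctrl, 742 to 803 in DBIC, 575 to 583 in Hemin and 582 to 672 in DBIC+Hemin. SOX10, which made up most of it, was itself called higher with DBIC (0.23, adjusted p = 0.00254) and lower with hemin added to DBIC (-0.31) and with hemin alone (-0.21, adjusted p = 0.0305). With DBIC, PMEL was also called higher (0.90, adjusted p = 0.0275) and S100B lower (-0.36, adjusted p = 0.021). S100B was lower in DBIC+Hemin against Hemin too (-0.46, adjusted p = 0.0236). Of 4 immune markers, PTPRC was at 0 in every library, where 3 counts correspond to at most 0.0784 CPM, and CD68, which other cells also express, made up most of a sum of 27.8 to 28.3 CPM in Ctrl, 21.5 to 27.8 CPM in DBIC, 26.1 to 27.5 CPM in Hemin and 28.2 to 30.9 CPM in DBIC+Hemin. CD68 itself was called higher with hemin added to DBIC (0.27, adjusted p = 0.0311). The sum of 5 fibroblast markers was 28.5 to 29.1 CPM in Ctrl, 22.5 to 23.6 CPM in DBIC, 27.5 to 29.4 CPM in Hemin and 25.7 to 28.9 CPM in DBIC+Hemin, so the DBIC libraries lay below all others. Of these, LUM (-0.40, adjusted p = 0.012) and PDGFRB (-0.33, adjusted p = 0.00369) were called lower with DBIC and higher with hemin added to it (0.43 and 0.23). The sums of 3 keratinocyte and 3 endothelial markers were at most 3.92 and 2.03 CPM in any library, and the endothelial CDH5, at 0.746 CPM or less, was called higher with DBIC (2.14, adjusted p = 0.0211). The part of these markers in the results below was not tested. Genes were tested with edgeR's quasi-likelihood F test over all 12 libraries, and every adjusted p given here is from that test over 14287 genes unless another tool is named. Changes are log2 fold changes ± SE, a gene is called when its adjusted p is under 0.05, and CPM values are compared only within a gene. Strand use in counting is not stated, and exons of a coding gene on the opposite strand covered 25.2% of the exonic bases of PDIA6 (ATP6V1C2), 14.8% of PDIA3 (ELL3) and 2.41% to 7.32% of HSP90B1, DNAJB9, CANX, CRELD2, SYVN1, DERL1 and SEC61A1. On the same strand, SEC22A shared 12.2% of the exonic bases of PDIA5, and another coding gene model shared 7.87% of those of DNAJB11. HSP90B1, PDIA3 and SEC61G have pseudogene copies that could take part of their reads. No search for such copies of the other members was made.

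Levels per length, as the authors' TPM, ranked CALR, P4HB, HSP90B1 and HSPA5 first in Ctrl. CALR (calreticulin, a lectin chaperone that also stores calcium) had 877 ± 14.3 TPM and P4HB (protein disulfide isomerase) 806 ± 25.9 TPM (mean ± SD, n = 3 here and below). HSP90B1 had 568 ± 10.9 TPM and HSPA5 493 ± 6.08 TPM, and the spreads of these 4 genes did not meet. ERN1 was the lowest member with 4.39 ± 0.454 TPM, followed by ERO1B with 7.21 ± 0.625 TPM and DNAJB9 with 8.61 ± 0.194 TPM. With DBIC the order changed, and HSPA5 led with 1491 ± 170 TPM before CALR with 985 ± 11.5 TPM and P4HB with 928 ± 79.5 TPM, of which the last 2 lay within one spread of each other. Together the 42 members took 7655 to 7700 CPM in Ctrl, 10440 to 11750 CPM in DBIC, 7847 to 8272 CPM in Hemin and 8327 to 8486 CPM in DBIC+Hemin. Without HSPA5 the sum was 6723 to 6783 CPM in Ctrl and 7976 to 8657 CPM in DBIC.

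**Figure D1:**
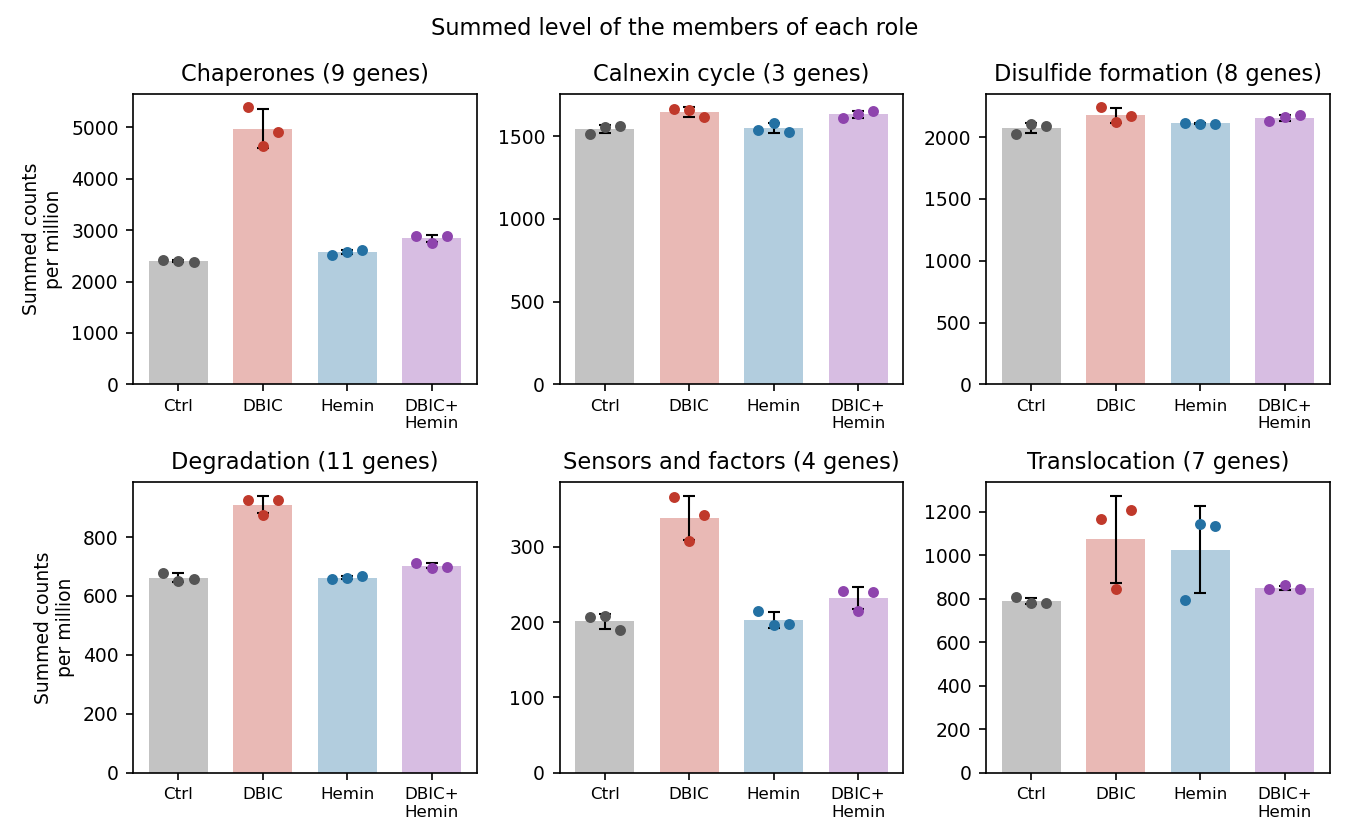
Summed CPM of the members of each role in the 12 libraries (y axis, from 0) by group (x axis). Points are libraries, bars are group means and error bars are SD (n = 3). The chaperone sum was 2381 to 2426 CPM in Ctrl and 4636 to 5389 CPM in DBIC, and the translocation sum had an SD of 200 CPM in both DBIC and Hemin.

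DBIC against Ctrl asks which of these genes the compound moved. Of the 42 members, 22 rose and none fell (52.4% higher), where 20.0% of all genes tested rose and 17.2% fell. Because the members were chosen with earlier results known, this gap is not an independent test of the set. At an unadjusted p under 0.05 the one member below Ctrl was UGGT1, and DESeq2 called 0 lower. With upper-quartile normalization 3 members were lower, with library totals only 1, and with only the groups compared 1. The median log2 fold change was 0.194 over the members and -0.01 over all genes tested. Every DBIC library was above every Ctrl library for 24 members, including all 22 that rose, as it was for 25.9% of all genes. By role, 7 of 9 chaperones and cochaperones rose, 1 of 3 calnexin cycle genes, 4 of 8 disulfide genes, 5 of 11 degradation genes, 4 of 4 sensors and factors, and 1 of 7 translocation genes. Of the 4 sensors and factors, ATF6 lost its call under 14 alternatives and CREB3L2 under 4. Among 8 other sensor and factor genes tested, described below, 1 was higher and 3 were lower. The members were not a uniform set: 5 rose by over 1.50 on the log2 scale or by that value (DNAJB9, HERPUD1, HSPA5, XBP1 and ERN1), and the other 17 rises lay between 0.09 and 0.78.

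**Figure D2:**
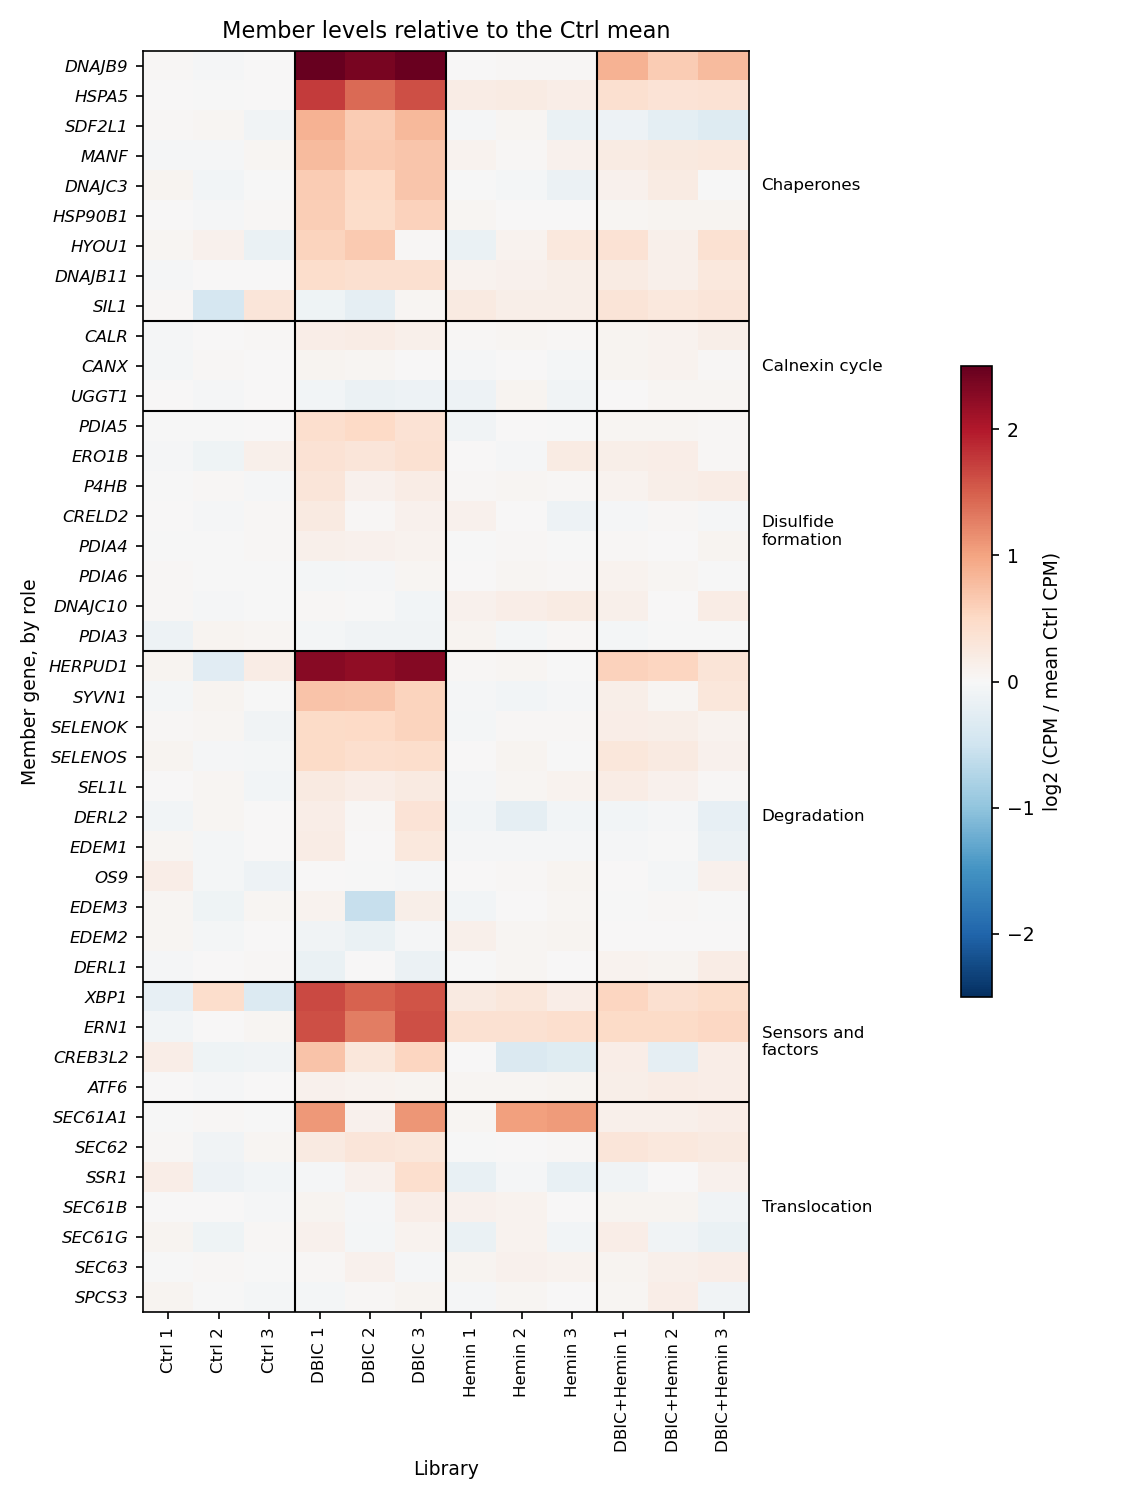
Level of each of the 42 members in each library relative to its Ctrl mean (colour, log2 of the CPM ratio, red above and blue below), with members in rows by role and libraries in columns by group. DNAJB9, HERPUD1, HSPA5, XBP1 and ERN1 are deep red in all 3 DBIC libraries and much paler in DBIC+Hemin, and SEC61A1 is red in 2 libraries of DBIC and 2 of Hemin.

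HSPA5 encodes BiP, the main HSP70 chaperone of the ER lumen and the protein that holds the sensors inactive. Its counts were 930, 917 and 932 CPM in Ctrl and 3095, 2468 and 2845 CPM in DBIC. They were 1053, 1064 and 1044 CPM in Hemin and 1224, 1167 and 1193 CPM in DBIC+Hemin. No DBIC library met another group, and DBIC 2 was the lowest of the 3. The rise with DBIC was 1.60 ± 0.063 (3.03-fold, adjusted p = 1.59e-08).

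DNAJB9 (ERdj4), a cochaperone of BiP and a classical XBP1 target, had the largest rise of the 42. It was at 11.4, 11.03 and 11.3 CPM in Ctrl and 63.1, 58.2 and 62.6 CPM in DBIC. It was at 11.4, 11.5 and 11.5 CPM in Hemin and 20.7, 17.5 and 19.4 CPM in DBIC+Hemin. The groups Ctrl and Hemin overlapped, and DBIC+Hemin stood above both and far below DBIC. The rise with DBIC was 2.45 ± 0.064 (5.45-fold, adjusted p = 4.31e-10), which ranked 94 of the 14287 genes by log2 fold change.

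The remaining chaperones moved less. HSP90B1 (GRP94) was at 767, 752 and 776 CPM in Ctrl, 1178, 1055 and 1140 CPM in DBIC, 790, 769 and 765 CPM in Hemin, and 796, 797 and 804 CPM in DBIC+Hemin. It rose by 0.56 ± 0.035 with DBIC (1.47-fold, adjusted p = 4.66e-07), and only the DBIC libraries stood far from the others. MANF, a secreted factor that binds BiP, was at 97.2, 97.1 and 103 CPM in Ctrl, 172, 157 and 159 CPM in DBIC, 105, 101 and 108 CPM in Hemin, and 115, 118 and 120 CPM in DBIC+Hemin. It rose by 0.72 ± 0.042 (1.64-fold, adjusted p = 2.43e-07). SDF2L1, which keeps BiP cycling on its clients, was at 21.8, 21.9 and 20.1 CPM in Ctrl, 38.9, 33.2 and 37.1 CPM in DBIC, 20.8, 22.0 and 19.0 CPM in Hemin, and 19.4, 18.02 and 17.1 CPM in DBIC+Hemin. It rose by 0.78 ± 0.078 with DBIC (1.71-fold, adjusted p = 1.62e-05), and its DBIC+Hemin libraries lay below every Ctrl library.

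Further J-domain partners of BiP rose, DNAJC3 (p58IPK, which also restrains PERK) by 0.61 ± 0.067 and DNAJB11 (ERdj3) by 0.41 ± 0.035. The exchange factors of BiP did not pass the test. HYOU1 (GRP170) was at 356 to 431 CPM in Ctrl and 412 to 631 CPM in DBIC (0.44 ± 0.17, adjusted p = 0.0682), and it passed with DESeq2 and without DBIC 3, its lowest DBIC library. SIL1 was at 10.6 to 17.5 CPM in Ctrl and 12.2 to 14.7 CPM in DBIC (-0.09 ± 0.14, adjusted p = 0.671), with Ctrl libraries that differed more from each other than the groups did.

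**Figure D3:**
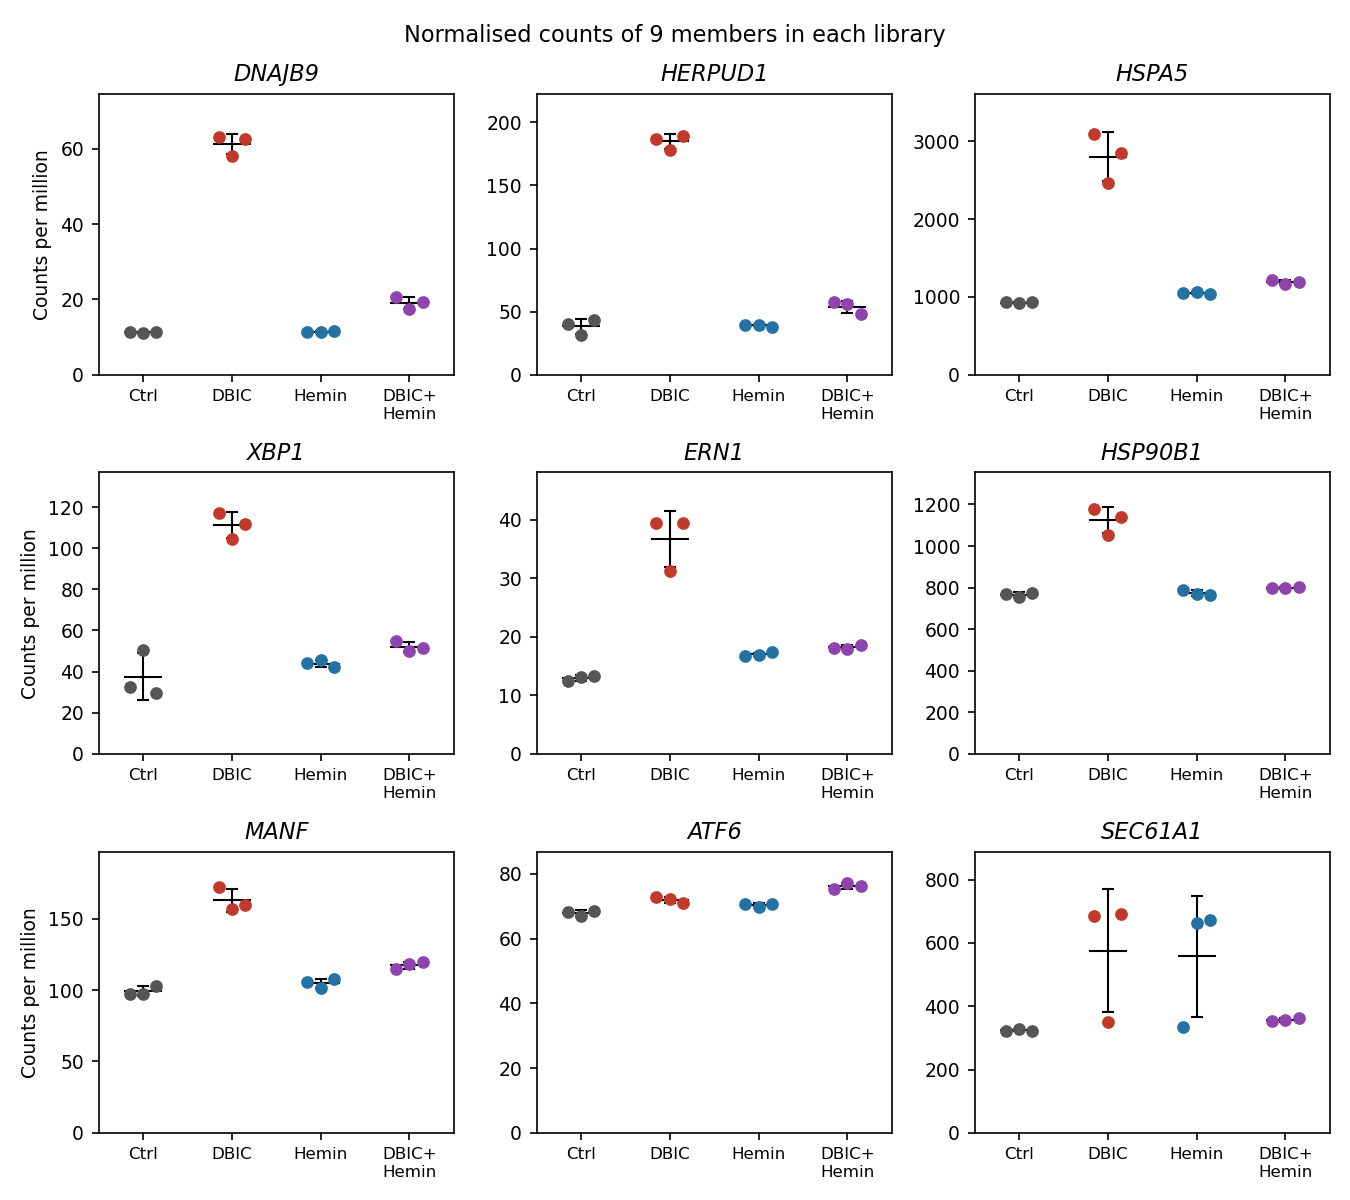
CPM of 9 members in each of the 12 libraries (y axis from 0, a scale per gene) by group (x axis). Points are libraries, horizontal marks are means and error bars are SD (n = 3). In DNAJB9, HERPUD1, HSPA5, XBP1 and ERN1 every DBIC library stands above every other library, in ATF6 the groups differ by a few CPM, and in SEC61A1 2 DBIC and 2 Hemin libraries stand at 663 to 692 CPM with the rest at 322 to 364 CPM.

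In the calnexin cycle, which retains unfinished glycoproteins by their sugar chains, the changes were small. CALR rose from 776 to 801 CPM in Ctrl to 867 to 902 CPM in DBIC (0.17 ± 0.027, adjusted p = 0.000635). Its membrane-bound relative CANX was at 584 to 613 CPM and 607 to 629 CPM (0.05 ± 0.026, adjusted p = 0.21). UGGT1, which re-tags misfolded glycoproteins for another round, was at 147 to 153 CPM in Ctrl and 137 to 144 CPM in DBIC (-0.11 ± 0.045, adjusted p = 0.072). All its DBIC libraries lay below Ctrl, and it passed the test with upper-quartile normalization, with library totals alone, with a fit on these groups only and without Hemin 2.

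Among the disulfide genes the abundant isomerases moved little. P4HB rose by 0.20 ± 0.043 and PDIA4 by 0.11 ± 0.024, whereas PDIA3 (-0.07 ± 0.048, adjusted p = 0.284) and PDIA6 (-0.01 ± 0.032, adjusted p = 0.784) did not pass the test. PDIA3 was at 516, 592 and 587 CPM in Ctrl 1, 2 and 3, and at 531 to 549 CPM in DBIC. Its DBIC libraries thus lay above Ctrl 1 and below Ctrl 2 and Ctrl 3. The PDIA4 call was lost with upper-quartile normalization (adjusted p = 0.131). The larger rises of this role were those of PDIA5 and ERO1B. PDIA5, a further isomerase, was at 24.4 to 24.7 CPM in Ctrl and 31.7 to 34.5 CPM in DBIC (0.43 ± 0.044, adjusted p = 2.11e-05). ERO1B, an oxidase that recharges the isomerases, was at 14.2 to 16.7 CPM in Ctrl and 18.9 to 19.9 CPM in DBIC (0.35 ± 0.078, adjusted p = 0.00475). CRELD2, an ER-stress-inducible isomerase, was at 42.4 to 43.98 CPM and 44.4 to 50.5 CPM (0.13 ± 0.064, adjusted p = 0.146), and the reductase DNAJC10 (ERdj5) at 72.0 to 75.0 CPM and 69.7 to 75.1 CPM (-0.02 ± 0.048, adjusted p = 0.839).

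In ER-associated degradation, 5 of 11 genes rose (HERPUD1, SYVN1, SEL1L, SELENOS and SELENOK). HERPUD1, which helps to assemble the membrane complex around the HRD1 ligase, was at 40.1, 31.8 and 43.5 CPM in Ctrl and 187, 178 and 190 CPM in DBIC. It was at 39.5, 39.5 and 38.2 CPM in Hemin and 57.4, 55.7 and 48.1 CPM in DBIC+Hemin. The DBIC libraries stood apart from all others, and Ctrl and Hemin overlapped. Its rise with DBIC was 2.27 ± 0.1 (4.81-fold, adjusted p = 5.52e-08). SYVN1, the HRD1 ligase itself, was at 95.6, 104 and 98.9 CPM in Ctrl, 163, 162 and 146 CPM in DBIC, 97.8, 95.0 and 98.0 CPM in Hemin, and 110, 103 and 120 CPM in DBIC+Hemin, where one library lay within Ctrl. It rose by 0.66 ± 0.06 with DBIC (1.58-fold, adjusted p = 7.47e-06).

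The ligase's adaptor SEL1L rose by 0.20 ± 0.049, and the selenoproteins SELENOS (VIMP, which recruits the VCP extraction motor) and SELENOK by 0.44 ± 0.049 and 0.51 ± 0.049. The 6 other degradation genes did not pass the test. EDEM1, EDEM2 and EDEM3, the lectins that mark glycoproteins for disposal, had log2 fold changes of 0.16 ± 0.059, -0.09 ± 0.047 and -0.08 ± 0.15 (adjusted p = 0.0538, 0.148 and 0.716). EDEM1 passed without DBIC 2, without DBIC+Hemin 3 and with at least 10 counts required in every library, and DBIC 2 was also the lowest library for EDEM3, with 38.4 CPM against 60.5 and 63.2 CPM in the other DBIC libraries. The channel-like derlins DERL1 and DERL2 had -0.10 ± 0.05 and 0.19 ± 0.08, and each passed the test without DBIC 2 in the direction given. The lectin OS9 had -0.01 ± 0.063.

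The sensors and factors differed widely in size. XBP1 was at 32.5, 50.5 and 29.5 CPM in Ctrl and 117, 105 and 112 CPM in DBIC. It was at 43.95, 45.4 and 42 CPM in Hemin and 54.7, 49.8 and 51.7 CPM in DBIC+Hemin. Ctrl 2 was far above the other 2 Ctrl libraries, and the DBIC libraries lay above all others. XBP1 rose by 1.57 ± 0.17 with DBIC (2.97-fold, adjusted p = 5.57e-05), and by 1.84 without Ctrl 2. ERN1, the gene of IRE1, was at 12.4, 13.1 and 13.4 CPM in Ctrl, 39.4, 31.2 and 39.5 CPM in DBIC, 16.8, 16.9 and 17.3 CPM in Hemin, and 18.1, 17.95 and 18.6 CPM in DBIC+Hemin. The 4 groups did not overlap, and the rise with DBIC was 1.50 ± 0.083 (2.84-fold, adjusted p = 1.45e-07).

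ATF6 was at 68.1, 67.0 and 68.6 CPM in Ctrl, 72.8, 72.3 and 70.9 CPM in DBIC, 70.6, 69.9 and 70.8 CPM in Hemin, and 75.5, 77.1 and 76.3 CPM in DBIC+Hemin. The DBIC libraries all lay above Ctrl, but the rise was 0.09 ± 0.028 (1.06-fold, adjusted p = 0.0339) and the call was lost under 14 of the 19 alternatives, with an adjusted p of up to 0.53. Its lost calls included the fits without any 1 of the Ctrl or Hemin libraries and those without DBIC 1 or DBIC 2, where the value was 0.07 to 0.09. CREB3L2, a related ER-anchored factor, was at 77.4 to 93.3 CPM in Ctrl and 100 to 136 CPM in DBIC (0.52 ± 0.15, adjusted p = 0.023). That call was lost without Ctrl 2 (0.47), Ctrl 3 (0.48), DBIC 1 (0.41) or DBIC 3 (0.51).

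Of the translocation genes, SEC62, which also helps to clear excess ER after stress, was the one that rose (0.27 ± 0.04, adjusted p = 3e-04). SEC61A1, the pore of the channel, differed between libraries of one group. It was at 322, 329 and 322 CPM in Ctrl, 685, 351 and 692 CPM in DBIC, 336, 663 and 674 CPM in Hemin, and 352, 355 and 364 CPM in DBIC+Hemin. The libraries fell on 2 levels that cut across the treatments, with DBIC 2 and Hemin 1 at the lower level. DBIC against Ctrl gave 0.83 ± 0.3 (adjusted p = 0.0569), and it passed with DESeq2, without DBIC 2 (1.08) and without Hemin 1 (0.83). RUVBL1, whose exons overlap those of SEC61A1 on the opposite strand and which was looked up after these values were seen, was at 195 to 241 CPM in the 12 libraries and did not follow the 2 levels. The deposited counts per TPM of SEC61A1 differed by 1.06 times between libraries, so the pattern was in the counts. SEC61B, SEC61G, SEC63, SPCS3 and SSR1, which encode the other channel subunits, a J-domain partner of the channel, a signal peptidase subunit and the translocon-associated protein TRAP alpha, had log2 fold changes of 0.02 to 0.17 and adjusted p of 0.268 to 0.869.

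The promoter matches are set beside the calls as counts, with no test. Of the 13 members with at least 1 of the 3 motifs, 8 rose with DBIC, and of the 27 members with a window and no match, 14 rose. Among those with ERSE it was 5 of 8. DNAJB9, SYVN1 and ERN1 rose without a match in their windows. Absence of these exact letters from a window of this length says nothing about inexact forms of the elements within it, or about regulation from elsewhere.

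DBIC+Hemin against DBIC asks what hemin did to the response. Both this comparison and DBIC against Ctrl use the same DBIC libraries, so their values are given side by side. With hemin added, 19 members were lower than with DBIC alone (45.2%) and 3 were higher (UGGT1, DERL1 and ATF6), against 18.4% lower and 13.5% higher over all genes tested. With upper-quartile normalization 16 members were lower and 9 higher, against 2032 lower and 2948 higher over all genes. By role, 7 of 9 chaperones were lower, 3 of 8 disulfide genes, 6 of 11 degradation genes and 3 of 4 sensors and factors, and no translocation or calnexin cycle gene was. HERPUD1 fell by 1.78 ± 0.1 and DNAJB9 by 1.68 ± 0.062. HSPA5 fell by 1.23 ± 0.063, XBP1 by 1.10 ± 0.16, ERN1 by 1.01 ± 0.081 and SDF2L1 by 1.0 ± 0.078.

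Smaller decreases that passed the test were found for DNAJC3 (-0.51), SYVN1 (-0.50), HSP90B1 (-0.49), CREB3L2 (-0.48), MANF (-0.47), PDIA5 (-0.39), SELENOK (-0.38), DERL2 (-0.29), SELENOS (-0.24), ERO1B (-0.23), EDEM1 (-0.22), DNAJB11 (-0.21) and PDIA4 (-0.07). The calls for PDIA4 were lost under 16 alternatives (adjusted p up to 0.805), those for CREB3L2 and ERO1B under 11 each (up to 0.134 and 0.128), and those for EDEM1 and DERL2 under 3 each (up to 0.0723 and 0.0755). Of the 3 increases, DERL1 (0.22 ± 0.05, adjusted p = 0.00641) kept its call throughout, UGGT1 (0.15 ± 0.045) lost it under 5 alternatives (adjusted p up to 0.0756) and ATF6 (0.08 ± 0.028) under 15 (up to 0.111). Rises with DBIC that were not lower with hemin added were those of CALR (-0.06 ± 0.027, adjusted p = 0.11), P4HB (-0.06 ± 0.043), SEL1L (-0.09 ± 0.049) and SEC62 (-0.01 ± 0.04), which did not pass the test, and of ATF6, which was higher.

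Hemin against Ctrl asks what hemin did without DBIC. One member rose and none fell, against 1.47% higher and 2.59% lower over all genes tested, and no member was lower at an unadjusted p under 0.05 or with DESeq2. The gene was ERN1, at 12.4 to 13.4 CPM in Ctrl and 16.8 to 17.3 CPM in Hemin (0.39 ± 0.082, 1.31-fold, adjusted p = 0.0222). Its call was lost when any 1 Ctrl or Hemin library was left out, where the value was 0.37 to 0.42 and the adjusted p was up to 0.0817. HSPA5 was above Ctrl in every Hemin library, with a log2 fold change of 0.19 ± 0.062 that did not pass the test (adjusted p = 0.144). It passed in a fit of Ctrl and Hemin alone and without DBIC 2. XBP1 had 0.22 ± 0.17 and passed without Ctrl 2.

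DBIC+Hemin against Hemin measures the DBIC effect in the presence of hemin and shares no library with DBIC against Ctrl. Of the 42 members, 5 rose and none fell, against 3.71% higher and 3.09% lower over all genes tested. At an unadjusted p under 0.05 the one member below Hemin was SDF2L1 (-0.18 ± 0.078), and DESeq2 called 0 lower. DNAJB9 rose by 0.74 ± 0.062 (1.67-fold, adjusted p = 4.8e-05), HERPUD1 by 0.46 ± 0.1 (1.38-fold, adjusted p = 0.0197), SEC62 by 0.25 ± 0.04 (1.19-fold, adjusted p = 0.00377), MANF by 0.16 ± 0.042 (adjusted p = 0.0386) and ATF6 by 0.11 ± 0.028 (adjusted p = 0.0333). DNAJB9 and SEC62 kept their calls throughout. The call of HERPUD1 was lost without any 1 Hemin library and without DBIC+Hemin 1 or 2 (0.41 to 0.47, adjusted p up to 0.0808), that of MANF under 11 alternatives (up to 0.135) and that of ATF6 under 12 (up to 0.125), in both including each Hemin and each DBIC+Hemin library. HSPA5 had 0.18 ± 0.062 (adjusted p = 0.12), with every DBIC+Hemin library above every Hemin library, and XBP1 and ERN1 had 0.25 ± 0.16 and 0.10 ± 0.081.

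**Figure D4:**
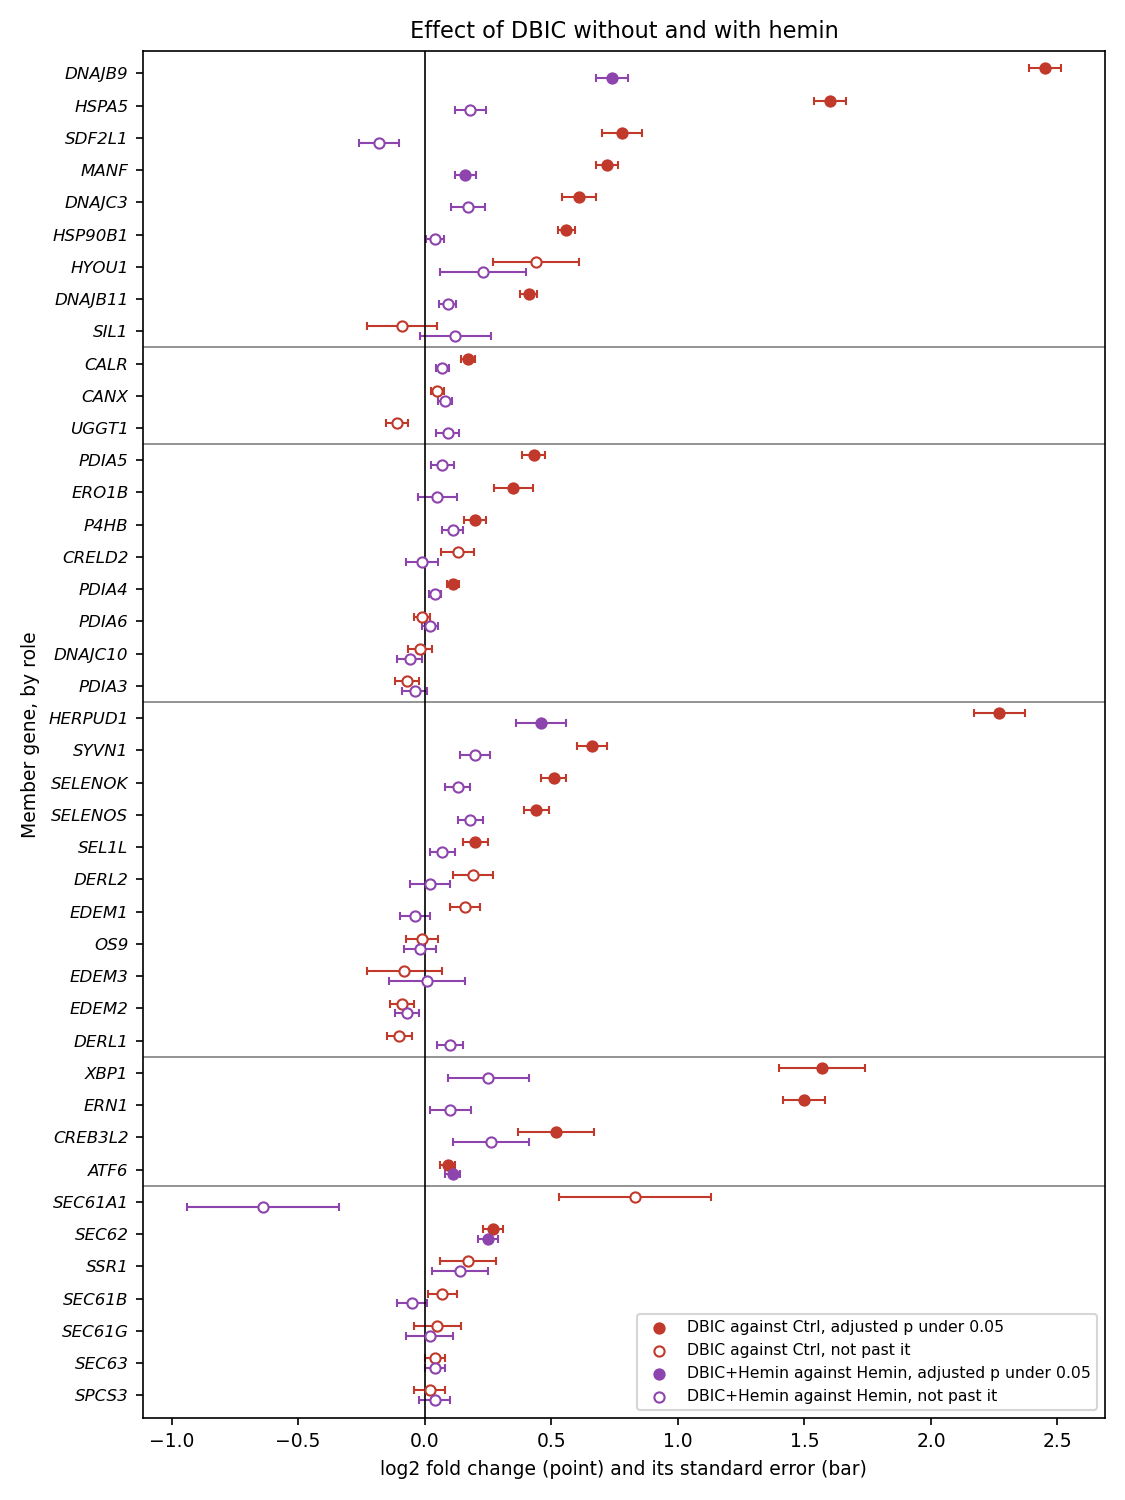
Log2 fold change (x axis, points) with its SE (bars) of each member, by role (y axis), for DBIC against Ctrl in red and DBIC+Hemin against Hemin in purple. Filled points have an adjusted p under 0.05. The purple points of DNAJB9, HSPA5, HERPUD1, XBP1 and ERN1 lie between 0.10 and 0.74, the red ones between 1.50 and 2.45, while those of SEC62 and ATF6 nearly coincide.

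The interaction tests the difference between these 2 effects directly. It was below 0 for 15 members (35.7%) and above 0 for none, against 10.2% lower and 6.40% higher over all genes tested. At an unadjusted p under 0.05 UGGT1 and DERL1 were above 0, and DESeq2 called 2 members above 0. It was largest for HERPUD1 (-1.80 ± 0.14, adjusted p = 1.28e-05) and DNAJB9 (-1.70 ± 0.087, adjusted p = 5.14e-07), followed by SEC61A1 (-1.47 ± 0.42, adjusted p = 0.0442), HSPA5 (-1.42 ± 0.088, adjusted p = 2.19e-06), ERN1 (-1.41 ± 0.12, adjusted p = 1.28e-05) and XBP1 (-1.32 ± 0.23, adjusted p = 0.0039). SEC61A1 rests on its 2 levels described above, and its call was lost under 12 alternatives (adjusted p up to 0.1), namely without any 1 library other than DBIC 2 and Hemin 1 (-1.49 to -1.31), with the replicate numbers as a block and with no low-count filter.

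The other 9 members whose interaction passed the test below 0 were SDF2L1 (-0.96), MANF (-0.55), HSP90B1 (-0.51), SYVN1 (-0.46), DNAJC3 (-0.44), SELENOK (-0.38), PDIA5 (-0.36), DNAJB11 (-0.32) and SELENOS (-0.26). The SELENOS call was lost without Ctrl 2, Ctrl 3, DBIC 1 or Hemin 2 and with upper-quartile normalization (adjusted p up to 0.0646). Members that rose with DBIC and whose interaction did not pass the test had the following values. ERO1B (-0.30 ± 0.11, adjusted p = 0.0942), CREB3L2 (-0.26 ± 0.22), SEL1L (-0.13 ± 0.069), CALR (-0.10 ± 0.039), P4HB (-0.09 ± 0.061) and PDIA4 (-0.07 ± 0.034) were below 0, the last 5 with adjusted p of 0.106 to 0.484. SEC62 (-0.02 ± 0.056) and ATF6 (0.03 ± 0.04) were close to 0, each with a value smaller than its SE. Over the 42 members the effects of DBIC without and with hemin had a Pearson correlation of 0.521 and a Spearman correlation of 0.522, as a description across genes that share libraries.

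For comparison, 91 other genes of the same pathways (further chaperones, sugar-trimming enzymes, isomerases, degradation components, sensors, oligosaccharyltransferase and signal recognition particle genes) were listed, of which 88 were tested. This list and the members were both chosen with earlier results of these data known, so differences between them are not an independent result. With DBIC, 20 rose and 20 fell (22.7% each), with a median of 0.028, close to the 20.0% and 17.2% of all genes. The largest rises were EIF2AK3, the gene of PERK (1.13 ± 0.06, adjusted p = 1.21e-07), the prolyl isomerase FKBP14 (0.55 ± 0.078) and the thioredoxin-like TXNDC11 (0.54 ± 0.05). Among the genes that passed the test, the largest falls were ERLIN2, which binds degradation substrates in the membrane (-0.48 ± 0.052), the glucosidase GANAB (-0.47 ± 0.087) and the thioredoxin-like TMX4 (-0.41 ± 0.034). WFS1, an ER membrane protein, had a log2 fold change of -1.10 ± 0.4 and the factor CREB3L1 -0.44 ± 0.19, which did not pass the test (adjusted p = 0.0598 and 0.101). EIF2AK3 was the only gene called higher among the 8 sensor and factor genes tested in this list, of which 3 were lower (median -0.225). In DBIC+Hemin against DBIC, 21 of the 88 were higher and 11 lower (23.9% and 12.5%, against 13.5% and 18.4% of all genes). For the interaction 14 were higher and 5 lower (15.9% and 5.68%, against 6.40% and 10.2% of all genes). EIF2AK3 was among the lower genes in both, with -0.99 ± 0.06 and -0.77 ± 0.085. With upper-quartile normalization, 2948 of all genes were called higher and 2032 lower in DBIC+Hemin against DBIC. For the interaction these counts were 1497 and 1203, so the balance over all genes depends on the scaling. With edgeR no gene of this list was called in Hemin against Ctrl, where 13 had an unadjusted p under 0.05 and DESeq2 called 2 higher and 1 lower. In DBIC+Hemin against Hemin 7 rose and none fell, where 3 were lower at an unadjusted p under 0.05 and 0 with DESeq2.

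Some members varied within groups in ways the treatments did not follow. Beside SEC61A1, the deposited counts per TPM differed between the highest and lowest library by 3.41 times for SSR1, 2.56 times for DNAJC10, 1.77 times for DERL2 and 1.58 times for CREB3L2. Their TPM thus did not follow their counts, and their levels per length were not compared. The cause was not tested. For the other 38 members the factor was 1.46 at most. These factors do not enter the tests, which used counts.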

How the data were processed

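Total RNA of A375 cells, extracted with Trizol, was sequenced in 12 libraries (4 groups of 3, by the treatment label). The authors deposited 1 table of 20263 genes with counts per gene, which they did not normalize, and with TPM and FPKM values, which they scaled by gene length and library size. The submitters' processing notes name Trim Galore, Subread, featureCounts and hg38. Their roles and versions, the annotation, the strand setting and the tool behind TPM and FPKM are not given in the sources used here. TPM was used here only for levels per length, and FPKM was not used.

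The count test was the quasi-likelihood F test of edgeR 4.0.16 (R 4.3.3). Genes were kept by filterByExpr, libraries were scaled by TMM, and the robust fit had 1 mean per group over all 12 libraries (8 residual degrees of freedom). Adjusted p-values are Benjamini-Hochberg over 14287 genes, with a threshold of 0.05, and each SE was obtained by dividing the size of the log2 fold change by the square root of F. CPM used the TMM library sizes. The steps were tested on simulated counts with known changes. At these total counts, 3 counts in a library are at most 0.0784 CPM.

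The members and lists were chosen with earlier results of these data known. All 42 members are given by role. CPM in every library is given for the 8 largest called rises with DBIC (no member fell), the 5 largest called interactions, and HSPA5, HSP90B1, DNAJB9, HERPUD1, XBP1, ATF6 and ERN1. Of the 91 other genes, the 3 largest rises and falls among those past the threshold are named, and WFS1 and CREB3L1 for their lower values. HMOX1 checks the hemin labels. RUVBL1 and the promoter motifs are exceptions chosen with values in view. The alternatives were DESeq2 1.42.0, upper-quartile scaling, library totals alone, a minimum of 10 counts in every library, omission of the low-count filter, a fit of only those groups that enter a comparison, a block for replicate number, and each library left out in turn. Promoter windows are from RefSeq (GRCh38.p14). Exon overlaps used the GENCODE 29 annotation.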

Additional observations from a re-analysis of the deposited data

Results flagged for a closer look

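For 15 members the effect of DBIC differed between cells with and without hemin by the interaction test of edgeR. All 15 values are below 0, that is, the effect was lower with hemin. For SDF2L1 and SEC61A1 the effect with hemin was itself below 0 (-0.18 and -0.64), and neither of these passed the test. Among the chaperones the differences (log2) were -1.70 for DNAJB9, -1.42 for HSPA5, -0.96 for SDF2L1, -0.55 for MANF, -0.51 for HSP90B1, -0.44 for DNAJC3 and -0.32 for DNAJB11. Among the degradation genes they were -1.80 for HERPUD1, -0.46 for SYVN1, -0.38 for SELENOK and -0.26 for SELENOS. The sensor gene ERN1 had -1.41, the factor XBP1 -1.32 and the isomerase PDIA5 -0.36. The value of SEC61A1, -1.47, rests on libraries of one group that differed widely, with 351 and 692 CPM as the lowest and highest DBIC library and 336 and 674 CPM as the lowest and highest Hemin library. What sets the level of SEC61A1 in a library was not tested.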

How the results depend on the processing

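The 7 alternatives with every library and the 12 fits without 1 library reversed the direction of none of the called member values. This does not cover values that were not called. For EDEM3 (-0.08 with DBIC), DBIC 1 and DBIC 3 lay above every Ctrl library (60.5 and 63.2 CPM against at most 59.3 CPM), and DBIC 2 below them. The count of 22 members higher and the 15 with an interaction below 0 stayed within 1.5 times under all of them. Counts near 0 moved. Members lower in DBIC against Ctrl were 3 with upper-quartile normalization, 1 with library totals only, 1 with only the groups compared and 0 to 1 without 1 library. Members higher in DBIC+Hemin against DBIC were 9 with upper-quartile normalization and 1 to 3 without 1 library. Members higher in Hemin against Ctrl were 2 with only the groups compared and 0 to 2 without 1 library, and all genes called were 272 to 623 without 1 library (580 with every library), at most 373 without any 1 Ctrl or Hemin library and fewest without Hemin 2. Members higher in DBIC+Hemin against Hemin were 8 with DESeq2, 3 with library totals only and 2 to 6 without 1 library, and all genes called were 569 with only the groups compared and 612 to 934 without 1 library (971 with every library), with 612, 621 and 625 without DBIC+Hemin 1, Hemin 1 and Hemin 3. Members with an interaction above 0 were 2 with DESeq2, 2 with upper-quartile normalization and 0 to 1 without 1 library. The causes of these shifts were not tested. Of the member values, 134 calls were lost and 59 were gained across the alternatives.

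Scaling moved the share of higher genes among all genes called from 53.8% to 40% in DBIC against Ctrl, from 42.4% to 59.2% in DBIC+Hemin against DBIC and from 38.5% to 55.4% for the interaction with upper-quartile normalization, and from 54.6% to 42.3% in DBIC+Hemin against Hemin with library totals only. The largest shifts of the median of all genes came with upper-quartile normalization. They were from -0.008 to -0.069 in DBIC against Ctrl and from -0.010 to 0.051 in DBIC+Hemin against DBIC.

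Replicate numbers did not pair the samples (correlations of -0.0591 to 0.0577). With the number as a replicate block, 21 members were higher in DBIC against Ctrl, 17 were lower in DBIC+Hemin against DBIC and 14 had an interaction below 0.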
